A study of Homo sapiens with 12 samples.

Results

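The genes described here are 9 members of the AP-1 network, FOS, FOSB, FOSL1, FOSL2, JUN, JUNB, JUND, MAFF and ATF3. They were taken by gene symbol from the deposited gene tables, where they are 9 of 58735 annotated genes, and all 9 passed the filter on low counts that left 16218 genes to test. The members were chosen with earlier results of these data known, so counts of called members describe them and are no independent test. The tables hold RNA-seq libraries of 2 human cell lines labelled anaplastic thyroid carcinoma, the undifferentiated form of thyroid cancer, in 4 groups of 3 libraries. KHM-5M, labelled BRAF V600E and grown in RPMI-1640, was given GDC-0994 or DMSO, and TTA-1, labelled BRAF wild type and grown in DMEM, was given the same. GDC-0994 (ravoxertinib), a small molecule that inhibits the ERK kinases, was used at 1 µM for 24 hours, and DMSO, a solvent, served as its control. Both media held fetal bovine serum, each line is a single model of its genotype, and BRAF status, medium and line cannot be told apart in a comparison of KHM-5M with TTA-1.

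AP-1 is a dimer of basic leucine zipper proteins that binds DNA as a transcription factor. FOS proteins need a partner such as a JUN protein, whereas JUN proteins can also pair with each other, and the small MAF and ATF proteins join neighbouring dimers of the same fold. ERK signalling raises AP-1 through transcription of FOS and FOSL1, through phosphorylation that stabilises their proteins, and through factors that act on the JUN genes, and FOSL1 (FRA1) is a well known ERK-dependent subunit in carcinoma cells. Transcripts, not proteins or dimers, were measured here.

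The library totals ranged from 14952970 to 18389915 counts. PAX8 and HHEX, transcription factor genes of the thyroid lineage, had a mean of at least 1 CPM (counts scaled to library size) in every group, while the thyroglobulin gene TG was at 0 in every KHM-5M library, and TSHR and SLC5A5 stayed below 1 CPM in every group. The summed level of 8 thyroid markers was 129 to 137 CPM in KHM-5M GDC-0994 libraries and 228 to 243 CPM in KHM-5M DMSO libraries, and 19.3 to 24.7 CPM in TTA-1 libraries of both groups. The summed level of 5 leukocyte markers lay between 0 and 0.614 CPM, that of 4 endothelial markers reached 3.71 CPM and that of 3 C cell markers 0.750 CPM. The summed level of 4 fibroblast genes, carried by LUM and COL1A1, was 1718 to 2075 CPM in KHM-5M GDC-0994 libraries. It was 691 to 722 CPM in KHM-5M DMSO libraries, no TTA-1 library passed 4.08 CPM, and its part in the results was not tested. DCN and PDGFRA, the other genes of that list, had means below 1 CPM in every group. The mesenchymal genes VIM, CDH2, FN1, ZEB1 and SNAI2 and the epithelial genes EPCAM, KRT8 and KRT18 had means of at least 1 CPM in every group. TTA-1 DMSO replicates 1 and 2 stood apart from each other. How far a gene in TTA-1 DMSO replicate 1 stood from the other libraries of the group, on the log2 scale, went with the GC content of its transcript (Pearson's r = 0.69 over 10966 genes, which share a library), and the relation ran the other way in replicate 2 (r = -0.67). The same was seen in KHM-5M with GDC-0994, where replicate 1 had r = 0.57 and replicate 3 had r = -0.53. The members are GC-rich for the most part, from 46.7% in ATF3 to 69.7% in JUND, which lies above 99.6% of the tested coding genes, so results in TTA-1 are given with and without these libraries where they change.

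Several members carry in their own promoters the element that AP-1 and its ATF and CREB relatives bind, and these stretches are shown because the genes that carry it went different ways. The 250 bases before the transcription start in RefSeq (GRCh38.p14) were searched on both strands for TGACGTCA, its shorter form TGACGT or ACGTCA (which overlaps it), TGACTCA or TGAGTCA, TGACATCA or TGATGTCA, and the CArG box bound by serum response factor. A window was at hand for 8 members, and FOSL1 is named only. MAFF and ATF3 each had another window, further downstream, that held no match. Which start was used in these cells was not measured. Each line gives 30 bases, 5′ to 3′ on the strand of the gene, with the matched letters in capitals.
FOS: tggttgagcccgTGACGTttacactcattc
FOSB: gcaaggggcgggTGACGTaagcaggggggc
FOSL2: ggagtctggggtTGACGTgagtgaatccac
JUN: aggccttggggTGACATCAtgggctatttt
JUND, distal: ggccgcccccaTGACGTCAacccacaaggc
JUND, proximal: tgcaaatgagcgACGTCAcccgcacccaat
MAFF: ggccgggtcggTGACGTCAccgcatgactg
ATF3: cacctatgataTGACATCAtatggccactc

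These stretches lie at chr14:75278752-75278781 (plus strand, FOS), chr19:45467924-45467953 (plus, FOSB), chr2:28392780-28392809 (plus, FOSL2), chr1:58784096-58784125 (minus, JUN), chr19:18281804-18281833 and chr19:18281692-18281721 (minus, JUND), chr22:38201929-38201958 (plus, MAFF) and chr1:212565273-212565302 (plus, ATF3). The matches began 54 (MAFF) to 200 (the distal JUND match) bases before the start. Among 35116 RefSeq promoter windows of the same length, TGACGTCA was found in 1.65%, TGACGT or ACGTCA in 7.10% and TGACATCA or TGATGTCA in 2.37%. The TGACTCA form, in 4.20% of windows, and the CArG box, in 1.16%, had no match in the windows of the members, and JUNB had no match of any kind. Sequence beyond these windows was not searched, so a site further from the start would be missed. In the annotation of the deposited tables the FOSL2, JUN and MAFF stretches lie within the bounds of the gene and that of FOS runs across its first base, because RefSeq places the start used here further downstream. A match is a run of letters and not a measured binding site. In the windows shown, FOS and MAFF, which fell in both lines, share the TGACGT core with JUND and FOSL2, which rose in KHM-5M. JUN and ATF3, which share TGACATCA there, changed in opposite directions in KHM-5M.

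The first comparison asked how the AP-1 genes responded to GDC-0994 in the BRAF V600E line. In KHM-5M, 4 members fell (FOSL1, FOS, MAFF and JUN), 4 rose (ATF3, JUND, JUNB and FOSL2) and FOSB was not called, at an adjusted p below 0.05 in edgeR's quasi-likelihood test with Benjamini-Hochberg adjustment over all genes tested. Of all genes tested, 49.8% were called in this line (25.1% lower and 24.6% higher), so being called does not by itself set a member apart. The members differed in the size of their changes, from a log2 fold change of -4.05 for FOSL1 to 1.15 for ATF3, and their median log2 fold change was 0.15, against 0.02 over all genes tested. For 8 of 9 members no GDC-0994 library overlapped a DMSO library in CPM, against 61.0% of all genes tested. The labels do not say that replicates came from separate cultures, so p-values here measure the spread between libraries, which may be technical, and in bulk RNA fewer cells with a transcript and less of it per cell cannot be told apart.

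Among the FOS subunits, FOSL1 (ENSG00000175592, chromosome 11, 65892049 to 65900573, minus strand) was the most abundant AP-1 transcript of KHM-5M cells given DMSO and not of those given GDC-0994. Its level was 19.3, 18.4 and 17.5 FPKM (a level per gene length and library size) in GDC-0994 replicates 1, 2 and 3, against 305, 307 and 286 FPKM in the DMSO replicates. All 3 treated libraries were far below all 3 controls, and the spread within either group was small beside the gap between them. The log2 fold change was -4.05 ± 0.18 (SE; edgeR's quasi-likelihood test, adjusted p = 1.76e-11), and it lay between -4.08 and -3.87 under the 25 other settings tried.

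FOS (ENSG00000170345, chromosome 14, 75278774 to 75282230, plus strand), the founding immediate-early member, was already scarce in this line. It had 11, 7 and 3 counts in KHM-5M GDC-0994 libraries, or 0.182, 0.121 and 0.0566 FPKM, against 55, 61 and 70 counts in DMSO libraries, or 0.951, 1.07 and 1.22 FPKM. The treated libraries were all below the controls, and the log2 fold change was -3.15 ± 0.35 (edgeR's quasi-likelihood test, adjusted p = 1.20e-06). FOSB (ENSG00000125740, chromosome 19, 45467995 to 45475179, plus strand), another immediate-early subunit, had 0.414, 0.242 and 0.451 FPKM in GDC-0994 libraries and 0.413, 0.256 and 0.304 FPKM in DMSO libraries. These ranges overlapped, and no change in FOSB was detected at 24 to 43 counts a library (log2 fold change 0.15 ± 0.32; edgeR's quasi-likelihood test, adjusted p = 0.718).

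FOSL2 (ENSG00000075426, chromosome 2, 28392448 to 28417312, plus strand), the other FOS-related antigen, went the opposite way to FOSL1. It had 33.4, 29.3 and 28.1 FPKM in KHM-5M GDC-0994 libraries and 23.6, 23.6 and 23.0 FPKM in DMSO libraries, with no overlap. The rise was 0.34 ± 0.09 on the log2 scale (edgeR's quasi-likelihood test, adjusted p = 0.00486).

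The 3 JUN genes did not move together. JUND (ENSG00000130522, chromosome 19, 18279760 to 18281622, minus strand), a JUN subunit known as broadly expressed and little induced by mitogens, had 161, 148 and 140.4 FPKM in KHM-5M GDC-0994 libraries against 95.0, 84.2 and 98.2 FPKM in DMSO libraries. It rose by 0.67 ± 0.11 on the log2 scale (edgeR's quasi-likelihood test, adjusted p = 6.72e-05). JUNB (ENSG00000171223, chromosome 19, 12791496 to 12793315, plus strand), which can restrain JUN in dimers, had 24.4, 23.9 and 22.1 FPKM in GDC-0994 libraries against 18.6, 15.2 and 15.6 FPKM in DMSO libraries. The groups of both genes were separate, and JUNB rose by 0.48 ± 0.12 on the log2 scale (edgeR's quasi-likelihood test, adjusted p = 0.00260). The single exon of JUNB overlaps an exon of HOOK2 on the opposite strand, and these libraries do not mark strand, so reads of the genes cannot be told apart there. HOOK2 itself had at most 504 counts in a library.

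JUN (ENSG00000177606, chromosome 1, 58780788 to 58784327, minus strand), the subunit activated by the JNK kinases, was the member of its family that fell. Its level was 55.6, 51.5 and 49.3 FPKM in KHM-5M GDC-0994 libraries, against 69.7, 64.4 and 62.8 FPKM in DMSO libraries. The groups did not overlap but lay close, and the log2 fold change of -0.36 ± 0.10 (edgeR's quasi-likelihood test, adjusted p = 0.00631) was the call in KHM-5M that settings could undo. It was lost without DMSO replicate 1 (adjusted p = 0.0647), without GDC-0994 replicate 3 (adjusted p = 0.0543) and in limma on unfiltered log2(FPKM + 1) values (adjusted p = 0.0505), and its adjusted p ranged from 6.85e-05 to 0.0647 over all settings.

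The partners outside the FOS and JUN families went opposite ways. MAFF (ENSG00000185022, chromosome 22, 38200767 to 38216511, plus strand), a small MAF protein without an activation domain, had 1.24, 1.34 and 1.25 FPKM in KHM-5M GDC-0994 libraries against 9.29, 8.67 and 9.12 FPKM in DMSO libraries. It fell by 2.85 ± 0.11 on the log2 scale (edgeR's quasi-likelihood test, adjusted p = 1.35e-12). ATF3 (ENSG00000162772, chromosome 1, 212565334 to 212620777, plus strand), a stress-induced bZIP protein that often represses, had 4.91, 4.70 and 4.50 FPKM in GDC-0994 libraries against 2.00, 2.21 and 2.02 FPKM in DMSO libraries. It rose by 1.15 ± 0.11 (edgeR's quasi-likelihood test, adjusted p = 1.27e-07), and in both genes the treated and control libraries were far apart.

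**Figure D1:**
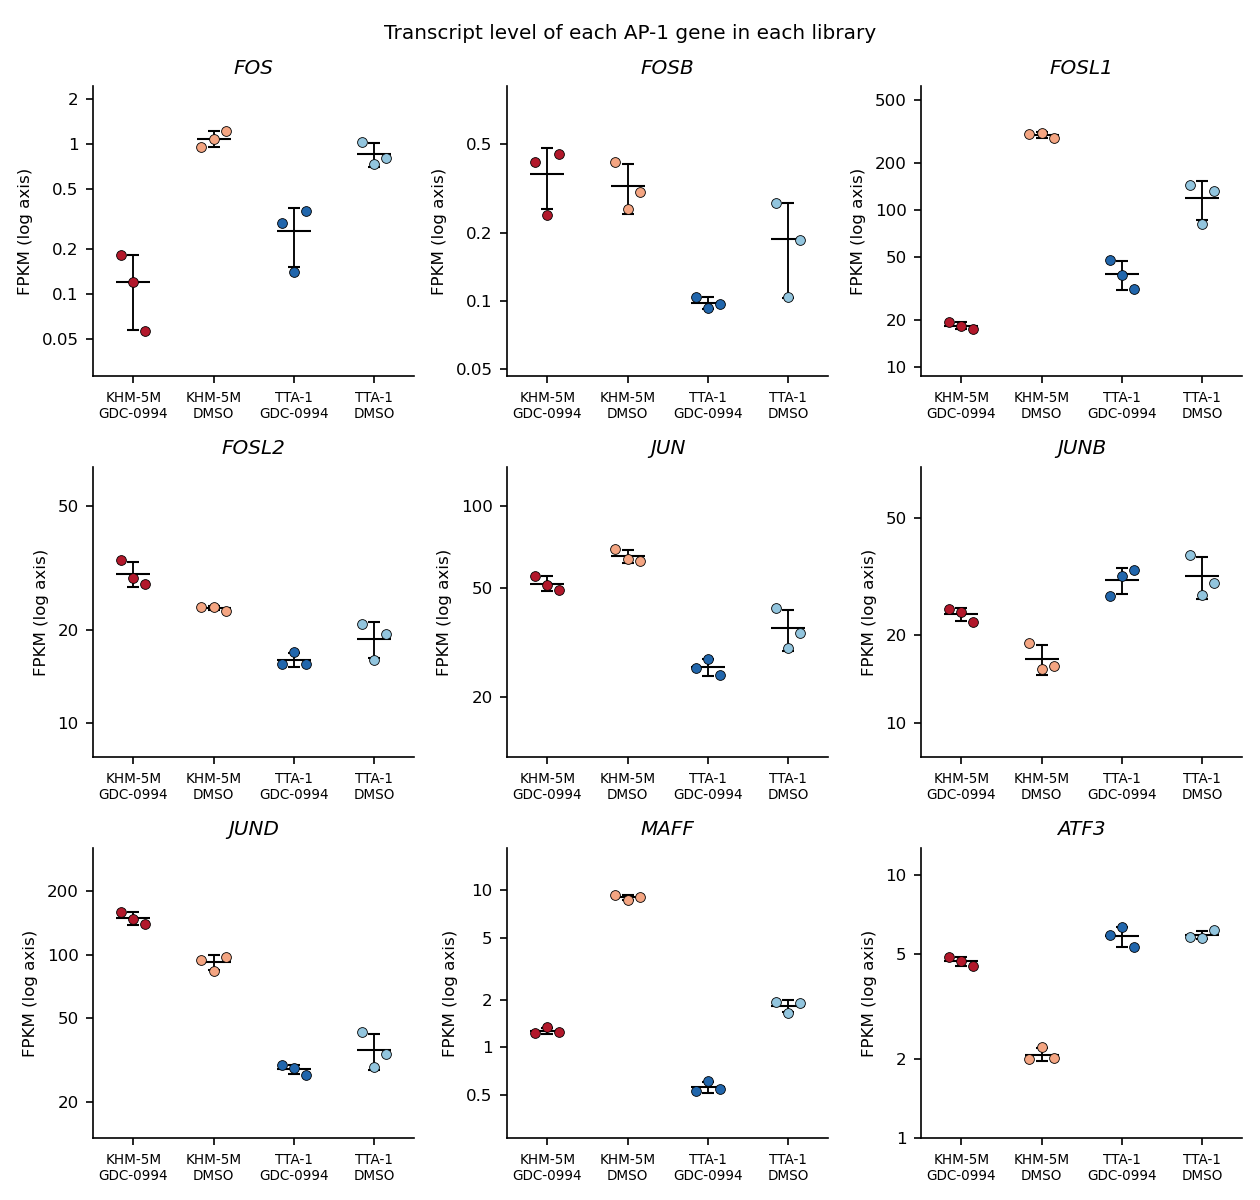
Level of each of the 9 genes in FPKM (vertical, log axis) in each library, with GDC-0994 and DMSO groups of KHM-5M at the left and of TTA-1 at the right; points are libraries in replicate order, and lines give the mean ± SD (n = 3). FOSL1 lies at 17.5 to 19.3 FPKM in KHM-5M GDC-0994 and at 286 to 307 FPKM in KHM-5M DMSO, and in TTA-1 the FOSB, FOSL2, JUNB, JUND and ATF3 groups overlap.

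The second comparison put the same question to TTA-1, the line labelled BRAF wild type. Here 4 members fell (FOSL1, FOS, MAFF and JUN), none rose and 5 were not called (FOSB, FOSL2, JUNB, JUND and ATF3). Of all genes tested, 3.43% were called in TTA-1, 2.24% as lower and 1.18% as higher. Since the members were chosen with earlier results known, this contrast is no independent test. The median log2 fold change of the members was -0.47, against 0.01 over all genes tested, and 4 of 9 members had groups that did not overlap in CPM, against 18.8% of all genes. All 9 log2 fold changes were below 0 in this model, so no member was higher at an unadjusted p below 0.05 there. None was called as higher in any of the 25 other settings, limma and DESeq2 included, although JUNB was higher at an unadjusted p of 0.0416 in edgeR with the GC and length trend removed (0.0464 with a replicate block besides).

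FOSL1 had 47.9, 38.6 and 31.4 FPKM in TTA-1 GDC-0994 libraries and 143, 81.4 and 132 FPKM in DMSO libraries. The lowest control was well above the highest treated library, and the log2 fold change was -1.59 ± 0.17 (edgeR's quasi-likelihood test, adjusted p = 2.68e-05). MAFF had 0.527, 0.608 and 0.541 FPKM in GDC-0994 libraries against 1.95, 1.66 and 1.91 FPKM in DMSO libraries. It fell by 1.71 ± 0.13 on the log2 scale (edgeR's quasi-likelihood test, adjusted p = 5.88e-07), again without overlap. FOS had 15, 7 and 17 counts in GDC-0994 libraries, or 0.298, 0.139 and 0.355 FPKM, against 53, 37 and 43 counts in DMSO libraries, or 1.04, 0.732 and 0.809 FPKM. It fell by 1.70 ± 0.33 (edgeR's quasi-likelihood test, adjusted p = 0.00677), and the libraries of the groups were apart.

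JUN fell in TTA-1 as well, by 0.47 ± 0.10 on the log2 scale (edgeR's quasi-likelihood test, adjusted p = 0.0154), with 25.4, 27.6 and 24.0 FPKM in GDC-0994 libraries and 42.4, 30.3 and 34.3 FPKM in DMSO libraries. The groups did not overlap, but DMSO replicate 2 lay near the treated range. The call was lost in 5 of 25 settings: without DMSO replicate 1 (adjusted p = 0.0511), without GDC-0994 replicate 1 (adjusted p = 0.0564) or 3 (adjusted p = 0.102), in a model of the TTA-1 libraries alone (adjusted p = 0.109) and in limma on unfiltered values (adjusted p = 0.106). It was kept when the GC and length trend of each library was removed (log2 fold change -0.36, adjusted p = 0.00191).

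The genes that rose in KHM-5M did not do so in TTA-1. JUND had 30.0, 29.1 and 27.0 FPKM in TTA-1 GDC-0994 libraries and 43.1, 29.6 and 33.9 FPKM in DMSO libraries, so DMSO replicate 2 lay inside the treated range (-0.30 ± 0.11 log2; edgeR's quasi-likelihood test, adjusted p = 0.166). JUNB had 27.2, 31.6 and 33.2 FPKM in GDC-0994 libraries and 37.4, 27.4 and 30.0 FPKM in DMSO libraries, ranges that overlapped widely (-0.04 ± 0.11 log2). FOSL2 had 15.5, 17.0 and 15.5 FPKM in GDC-0994 libraries and 20.8, 15.9 and 19.3 FPKM in DMSO libraries (-0.22 ± 0.09 log2; edgeR's quasi-likelihood test, adjusted p = 0.219). ATF3, at 5.92, 6.35 and 5.33 FPKM in GDC-0994 libraries and 5.83, 5.76 and 6.17 FPKM in DMSO libraries, had a log2 fold change of -0.01 ± 0.10. The treated ATF3 libraries lay on both sides of the controls. FOSB had 8 to 9 counts in GDC-0994 libraries and 9 to 24 in DMSO libraries, overlapping at 9, and was not called (-0.93 ± 0.43 log2; edgeR's quasi-likelihood test, adjusted p = 0.278).

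These values depend on the TTA-1 DMSO libraries that stood apart. Replicate 2 was the lowest DMSO library for 9 of 9 members and replicate 1 the highest for 8. Without replicate 2, JUND (-0.44, adjusted p = 0.00458 in edgeR's quasi-likelihood test) and FOSL2 (-0.35, adjusted p = 0.00429) were also called as lower, and 2620 genes were called in TTA-1 in place of 556. JUND was also called with no filter on low counts (-0.32, adjusted p = 0.0126), where more genes entered the test. With the GC and length trend removed, JUND had a log2 fold change of 0.03 and JUNB of 0.21, neither of them called, so no direction is given for these genes in TTA-1. The falls of FOSL1, MAFF and FOS were called in every setting in which these genes were tested.

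**Figure D2:**
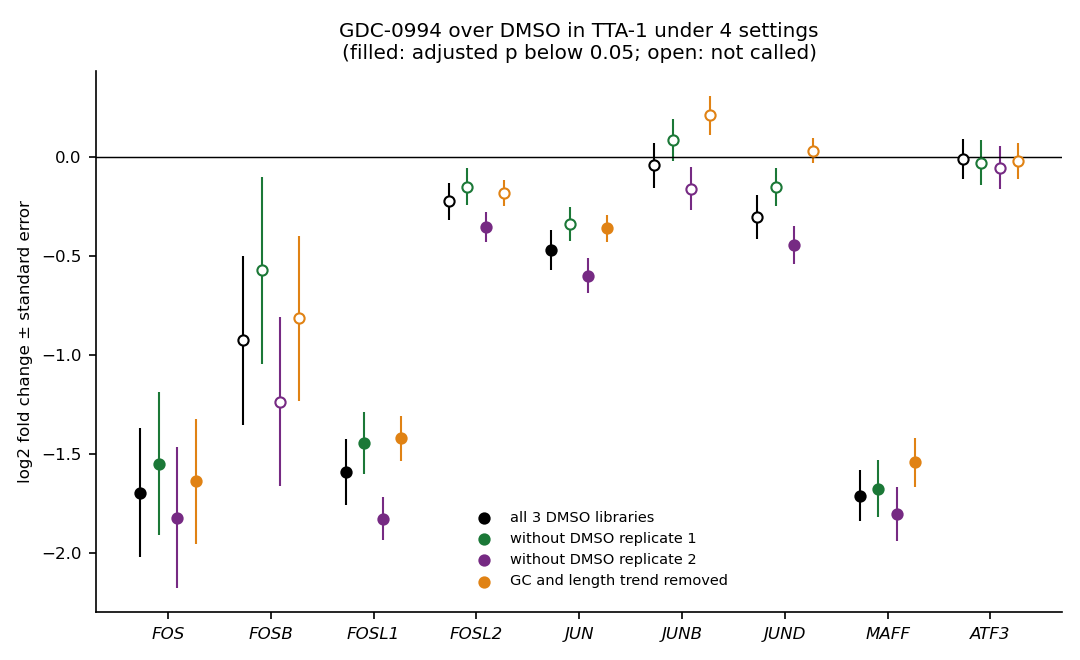
Log2 fold change of GDC-0994 over DMSO in TTA-1 ± SE (vertical) for each of the 9 genes with all libraries, without DMSO replicate 1, without DMSO replicate 2, and with the GC and length trend of each library removed; filled points have an adjusted p below 0.05. FOS, FOSL1 and MAFF are filled in all 4 settings, JUN in 3, and JUND and FOSL2 only without DMSO replicate 2.

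The difference between the responses, KHM-5M minus TTA-1, was tested as an interaction in the same model, and 7 of 9 members were called, against 27.9% of all genes tested. For 3 of the 7 the log2 fold change was lower in KHM-5M (15.6% of all genes tested) and for 4 it was higher (12.3%). The difference was -2.46 ± 0.24 for FOSL1 (edgeR's quasi-likelihood test, adjusted p = 5.68e-07) and -1.14 ± 0.17 for MAFF (adjusted p = 7.09e-05), both of which fell further in KHM-5M. The difference for FOS, -1.45 ± 0.51, passed narrowly (adjusted p = 0.0429 in edgeR's quasi-likelihood test) and was called in 8 of the 23 other settings, over which the adjusted p ranged from 0.0185 to 0.158. ATF3 (1.16 ± 0.15), JUND (0.97 ± 0.15) and FOSL2 (0.57 ± 0.13) had higher log2 fold changes in KHM-5M and were called in every other setting. JUNB (0.52 ± 0.16; edgeR's quasi-likelihood test, adjusted p = 0.0246) was called in 19 of 24. For JUN the difference was 0.11 ± 0.14 and was not called (adjusted p = 0.633 in edgeR's quasi-likelihood test), nor was that for FOSB (1.08 ± 0.53, adjusted p = 0.152). The treatment effects of the lines share no libraries.

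**Figure D3:**
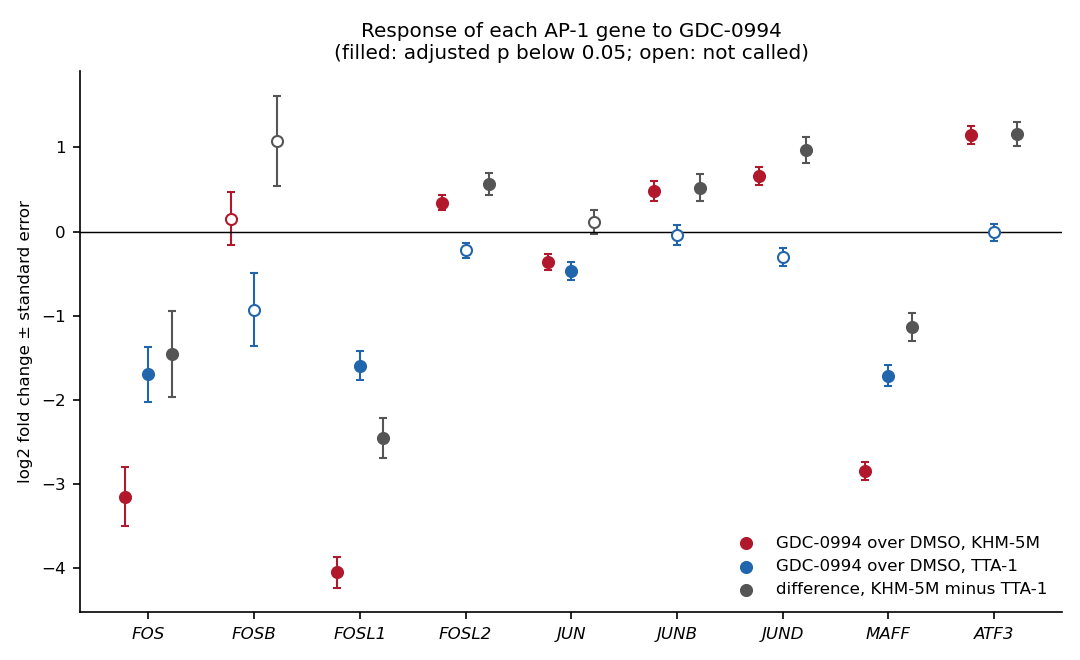
Log2 fold change ± SE (vertical) of GDC-0994 over DMSO in KHM-5M and in TTA-1, and the difference between them, for each of the 9 genes; filled points have an adjusted p below 0.05. FOSL1 lies at -4.05 in KHM-5M and at -1.59 in TTA-1, while ATF3 lies at 1.15 in KHM-5M and at -0.01 in TTA-1.

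The make-up of the AP-1 transcript pool, the summed FPKM of the 9 genes in a library, changed with these responses. In KHM-5M the pool was 300.1, 277 and 264 FPKM with GDC-0994 against 525, 506 and 499 FPKM with DMSO, a ratio of 0.550. In TTA-1 it was 153, 151 and 138 FPKM with GDC-0994 against 296, 193 and 258 FPKM with DMSO, a ratio of 0.591. No treated library reached a control of its line, and each exact permutation test, two-sided, gave p = 0.1, the smallest that this test allows with 3 against 3 libraries, so it cannot pass 0.05 for a pool size or a share, whatever the size of the difference.

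In KHM-5M the largest share of the pool belonged to JUND with GDC-0994 and to FOSL1 with DMSO. FOSL1 made up 6.57 ± 0.118% of it with GDC-0994 and 58.7 ± 1.64% with DMSO (SD, n = 3 each), and JUND made up 53.4 ± 0.148% with GDC-0994 and 18.1 ± 1.52% with DMSO. The shares of JUN (18.6 ± 0.0823% with GDC-0994, 12.9 ± 0.372% with DMSO), FOSL2 (10.6% to 11.1% with GDC-0994, 4.51% to 4.66% with DMSO), JUNB (8.37 ± 0.242% with GDC-0994, 3.23 ± 0.288% with DMSO) and ATF3 (1.68 ± 0.0396% with GDC-0994, 0.407 ± 0.0283% with DMSO) were all larger with GDC-0994. JUN thus took a larger share of a smaller pool although its own level was lower. MAFF (0.457% with GDC-0994, 1.77% with DMSO) and FOS (0.0419% with GDC-0994, 0.212% with DMSO) took smaller shares, and FOSB had 0.132% with GDC-0994 and 0.0634% with DMSO. For all 9 shares in KHM-5M the libraries of the groups were apart, with p = 0.1 in the exact permutation test and 0.1 after adjustment over the 9 genes. Shares of a library add up to the whole, so the smaller FOSL1 share by itself raises the others. The 9 shares are thus not separate results, and that of FOSB was larger although no change in its level was detected.

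In TTA-1 FOSL1 kept the largest mean share in FPKM, and its share differed by -20.6 percentage points between GDC-0994 and DMSO, against -52.1 in KHM-5M, a contrast of the lines that was not tested. FOSL1 made up 26.6 ± 4.33% of it with GDC-0994 and 47.2 ± 4.53% with DMSO (SD, n = 3 each). With GDC-0994 it shared the top of the pool with JUNB (20.9 ± 3.19%, against 12.8 ± 1.30% with DMSO), JUND (19.5 ± 0.229%, against 14.3 ± 1.13% with DMSO) and JUN (17.5 ± 0.820%, against 14.4 ± 1.23% with DMSO). Their larger shares were of a smaller pool. Mean levels with GDC-0994 were not higher for JUNB (30.7 FPKM, against 31.6 with DMSO), JUND (28.7, against 35.5) or JUN (25.7, against 35.7). FOSL2 was at 10.9 ± 0.639% with GDC-0994 and 7.60 ± 0.620% with DMSO, and ATF3 was at 3.98 ± 0.188% with GDC-0994 and 2.45 ± 0.512% with DMSO. The exact permutation p was 0.1 for every share in TTA-1 except that of FOSB (0.7), whose groups overlapped. The shares in TTA-1 are linked in the same way as those in KHM-5M.

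**Figure D4:**
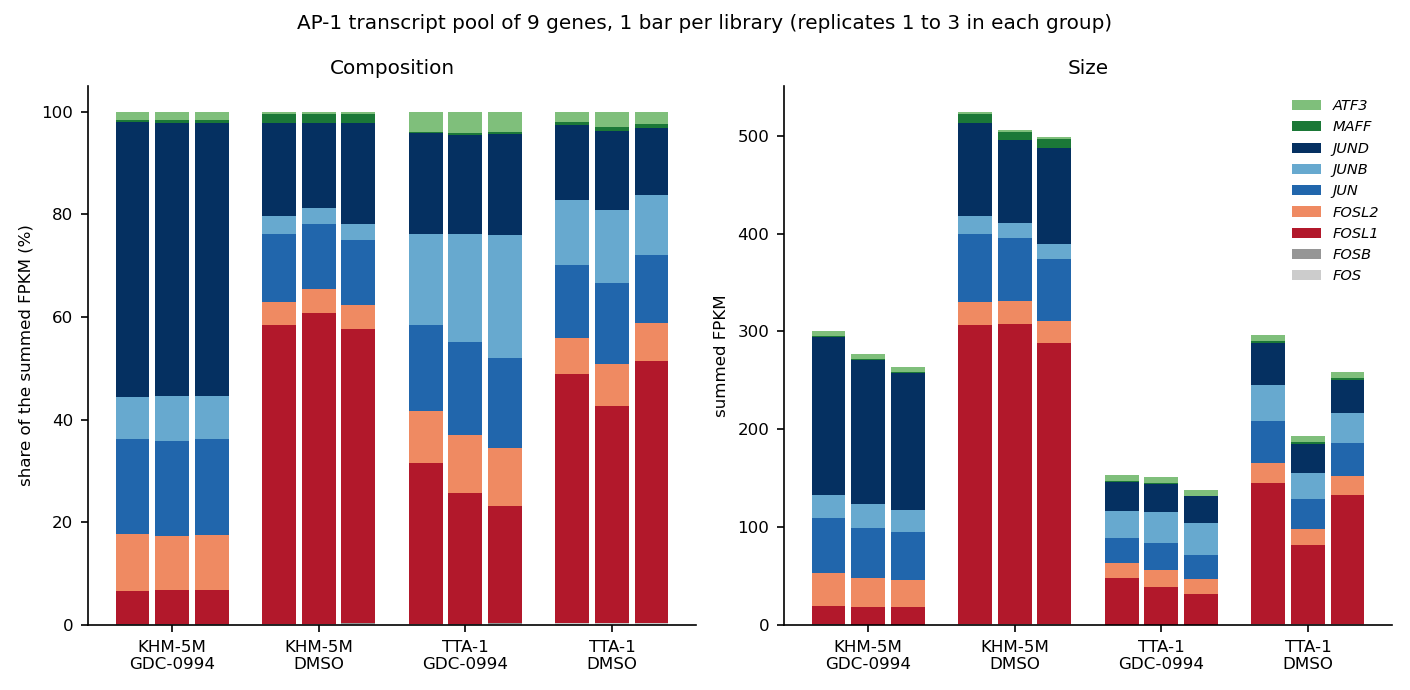
Composition of the AP-1 transcript pool as shares of the summed FPKM of 9 genes (left, %) and its size in summed FPKM (right), with 1 bar for each library, replicates 1 to 3 in each group, GDC-0994 before DMSO within a line. FOSL1 fills 57.4% to 60.6% of the KHM-5M DMSO bars and 6.44% to 6.64% of the KHM-5M GDC-0994 bars, where JUND fills 53.3% to 53.5%.

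Summed by family, the 4 FOS genes came to 49.2 ± 3.74 FPKM with GDC-0994 and 324 ± 11.4 FPKM with DMSO in KHM-5M, and to 55.7 ± 8.21 FPKM with GDC-0994 and 139 ± 35.7 FPKM with DMSO in TTA-1 (SD, n = 3 each). The 3 JUN genes came to 225 ± 14.6 FPKM with GDC-0994 and 175 ± 9.91 FPKM with DMSO in KHM-5M, and to 85.1 ± 2.95 FPKM with GDC-0994 and 103 ± 18.2 FPKM with DMSO in TTA-1. FOS transcripts therefore outnumbered JUN transcripts with DMSO in both lines and not with GDC-0994. The ratio of the families was 0.218 ± 0.00300 with GDC-0994 and 1.86 ± 0.141 with DMSO in KHM-5M, and 0.655 ± 0.107 with GDC-0994 and 1.34 ± 0.212 with DMSO in TTA-1. Within the FOS family of KHM-5M, FOSL2 made up 61.5 ± 0.989% and FOSL1 37.5 ± 1.11% with GDC-0994, whereas FOSL1 made up 92.3 ± 0.197% with DMSO. In TTA-1 FOSL1 remained the leading FOS transcript in FPKM, at 70.2 ± 4.45% with GDC-0994 and 85.4 ± 2.14% with DMSO.

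The order of the levels in FPKM followed from this, and it depends on gene length. In KHM-5M with GDC-0994 it ran JUND, JUN, FOSL2, JUNB, FOSL1, ATF3, MAFF, FOSB and FOS, and with DMSO it ran FOSL1, JUND, JUN, FOSL2, JUNB, MAFF, ATF3, FOS and FOSB, and in both no neighbours overlapped in FPKM. FOSL1 thus held the fifth place with GDC-0994 and led with DMSO. In TTA-1 with GDC-0994 the libraries of FOSL1, JUNB, JUND and JUN overlapped from each to the next, so their order is not set, and FOSL2, ATF3, MAFF, FOS and FOSB followed without overlap. In TTA-1 with DMSO FOSL1 led, JUN, JUND and JUNB overlapped, and FOSL2, ATF3, MAFF, FOS and FOSB followed.

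The lines also differed in AP-1 levels under the same treatment. With DMSO, 5 members were higher in KHM-5M than in TTA-1 (MAFF, JUND, FOSL1, JUN and FOSL2) and 2 lower (ATF3 and JUNB), while FOS and FOSB were not called, and 76.5% of all genes tested differed between the lines (39.6% higher and 36.8% lower in KHM-5M). For 7 members the lines did not overlap in CPM, against 77.8% of all genes. FOSB (0.76 ± 0.35 log2; edgeR's quasi-likelihood test, adjusted p = 0.0586) was called as higher in KHM-5M in 7 of 22 other settings, and FOS in 0 of 24. The log2 fold change of KHM-5M over TTA-1 was 2.27 ± 0.10 for MAFF, at a mean of 9.02 FPKM in KHM-5M and 1.84 FPKM in TTA-1, 1.36 ± 0.11 for JUND and 1.31 ± 0.16 for FOSL1. It was -1.54 ± 0.11 for ATF3, at 2.08 FPKM in KHM-5M and 5.92 FPKM in TTA-1, and -0.96 ± 0.12 for JUNB. These sizes depend on the GC and length trend: with it removed JUND was at 0.56 and JUNB at -1.57, both still called. FOSL2, the smallest of these differences (0.30 ± 0.09), was not called with that trend removed (0.03, adjusted p = 0.628 in edgeR's quasi-likelihood test).

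With GDC-0994 all 9 members were called between the lines, 5 higher and 4 lower in KHM-5M, against 80.1% of all genes tested (41.0% higher and 39.1% lower). The lines did not overlap in CPM for 8 members, against 82.0% of all genes. FOSL1 was now the lower one in KHM-5M, at a mean of 18.4 FPKM against 39.3 FPKM in TTA-1 (-1.15 ± 0.17 log2), although it was the higher one with DMSO, at 299 FPKM in KHM-5M against 119 FPKM in TTA-1. JUND was 149.5 FPKM in KHM-5M and 28.7 FPKM in TTA-1, a log2 fold change of 2.32 ± 0.11. ATF3 was 4.70 FPKM in KHM-5M and 5.87 FPKM in TTA-1, a log2 fold change of -0.37 ± 0.10, so the gap seen with DMSO was narrower with GDC-0994. The FOS difference (-1.15 ± 0.44; edgeR's quasi-likelihood test, adjusted p = 0.0232) rested on 3 to 17 counts a library, with overlapping groups, and was called in 17 of 23 other settings. That of ATF3 was called in 21 of 25. With the GC and length trend removed JUND was at 1.33, JUNB at -1.14 and MAFF at 0.54, all still called, and ATF3 at -0.18 was not (adjusted p = 0.0727 in edgeR's quasi-likelihood test).

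The other genes of the network were counted in lists, to be read against the 24.6% of all genes tested that were higher and the 25.1% that were lower in KHM-5M, and the 1.18% higher and 2.24% lower in TTA-1. These lists, too, were chosen with earlier results of these data known. Of 17 bZIP partners and relatives, 14 were tested, and in KHM-5M 5 rose, 4 fell and 5 were not called, with a median log2 fold change of 0.11 against 0.02 over all genes tested, while in TTA-1 1 fell and 13 were not called. In KHM-5M 49.8% of all genes tested were called, against 9 of these 14. BATF3, a FOS-like bZIP protein that dimerises with JUN, had 3.99 ± 0.334 CPM with GDC-0994 and 15.4 ± 0.406 CPM with DMSO in KHM-5M (-1.95 ± 0.21 log2). BACH2, a partner of the small MAF proteins, fell in KHM-5M too (-0.90 ± 0.27), and ATF4, the factor of the integrated stress response, fell (-0.32 ± 0.08). ATF2 (0.72 ± 0.16, with 69.1 ± 17.5 CPM across GDC-0994 libraries and 41.9 ± 0.756 CPM across DMSO libraries) and ATF7 (0.35 ± 0.10), which dimerise with JUN, and BACH1 (0.44 ± 0.15) rose there. The calls of ATF4 and BACH1 were each made in 22 of 25 other settings, and that of BACH2 in 21 of 22. In TTA-1 MAFK, a small MAF like MAFF, fell (-0.56 ± 0.11, called in 23 of 25 other settings).

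Of 18 genes that feed into AP-1, kinases and the factors that transcribe FOS and JUN, 3 rose, 7 fell and 8 were not called in KHM-5M, with a median of -0.11, and 3 fell and 15 were not called in TTA-1. The 10 calls in KHM-5M are read against 49.8% of all genes called there, and the 3 in TTA-1 against 3.43%. In KHM-5M the ternary complex factor ELK1 (-0.79 ± 0.12), its relative ELK3 (-0.60 ± 0.08) and MAPK9, which encodes a JNK kinase (-0.63 ± 0.09), fell, while MAP3K1, upstream of JNK (0.66 ± 0.13), and CREB1, which binds the TGACGTCA element (0.51 ± 0.14), rose. MAPK10 was called as higher from 0.894 ± 0.247 CPM with GDC-0994 and 0.133 ± 0.120 CPM with DMSO, a level too low for a fold to be given. In TTA-1 ETS1 (-0.60 ± 0.07), ELK3 (-0.72 ± 0.08) and SRF (-0.48 ± 0.11) fell. ETS1 fell in KHM-5M as well (-0.38 ± 0.07, called in 25 of 25 other settings). Its difference between the lines was not called (adjusted p = 0.103 in edgeR's quasi-likelihood test). SRF, the factor that binds the CArG box, was called in 19 of 25 other settings.

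Many immediate-early mRNAs carry AU-rich elements in their 3' untranslated regions that shorten their lives. By the longest annotated 3' untranslated region, FOS had 6.20 AUUUA motifs per kilobase, above 95.5% of 13072 tested genes, JUNB had 2 motifs in 500 bases, and the other members had 1.19 to 2.45, against a median of 1.69. The longer UAUUUAU form was found in 8 of 9 members (not in JUNB), against 35.8% of all these genes. Of 8 genes for proteins that bind such elements, 2 rose, 4 fell and 2 were not called in KHM-5M, with a median log2 fold change of -0.34, against 49.8% of all genes called there, and 2 fell and 6 were not called in TTA-1, against 3.43%. In KHM-5M HNRNPD (-0.90 ± 0.08), KHSRP (-0.90 ± 0.10) and ZFP36L2 (-0.96 ± 0.12) fell, and TIA1 (0.86 ± 0.13) and ZFP36 (0.48 ± 0.14) rose. In TTA-1 ZFP36L2 (-0.50 ± 0.12) and ZFP36L1 (-0.30 ± 0.07) fell, with calls in 20 and 13 of 25 other settings.

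Genes known from other studies as AP-1 targets fell more often than they rose. The list was chosen with earlier results of these data known, so its counts describe these genes and are no independent test. Of 25 listed, 20 were tested, and in KHM-5M 12 fell, 3 rose and 5 were not called, with a median log2 fold change of -0.97, while in TTA-1 9 fell and 11 were not called, with a median of -0.48. Of all genes tested, 25.1% fell and 24.6% rose in KHM-5M and 2.24% fell in TTA-1, and the median was 0.02 in KHM-5M and 0.01 in TTA-1. In KHM-5M LAMB3, a laminin chain of the basement membrane, had 67.9 ± 2.59 CPM with GDC-0994 and 423 ± 5.50 CPM with DMSO (-2.64 ± 0.07 log2). The cyclin D1 gene CCND1 (-2.74 ± 0.08) and the adhesion receptor CD44 (-1.90 ± 0.06) fell, and HBEGF, an EGF receptor ligand (0.77 ± 0.10), and TGFB1 (0.27 ± 0.10) rose. The call of TGFB1 was made in 19 of 25 other settings. KRT17 was also called as higher, from 0.879 ± 0.390 CPM with GDC-0994 and 0.0946 ± 0.0863 CPM with DMSO. In TTA-1 LAMB3 fell to 177 ± 10.3 CPM with GDC-0994, against 304 ± 16.5 CPM with DMSO (-0.78 ± 0.07), and CCND1 fell as well (-0.70 ± 0.07). Under the other settings, chosen after seeing the data, 12 or 13 fell in KHM-5M and 7 to 11 in TTA-1, where the 11 were found without DMSO replicate 2. Without that library 1726 of 16678 genes were lower in TTA-1, against 364 of 16218 with all libraries. The 7 were found in limma with no filter (215 of 32513 lower) and with the TTA-1 libraries alone (137 of 13750). In KHM-5M 4626 of 15251 genes were lower with its libraries alone, where 13 listed genes fell. With no filter 3974 of 32513 were, where 12 fell. The difference between the lines was called for 11 of these 20 genes, 8 lower and 3 higher in KHM-5M, against 27.9% of all genes tested, 15.6% lower and 12.3% higher.

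**Figure D5:**
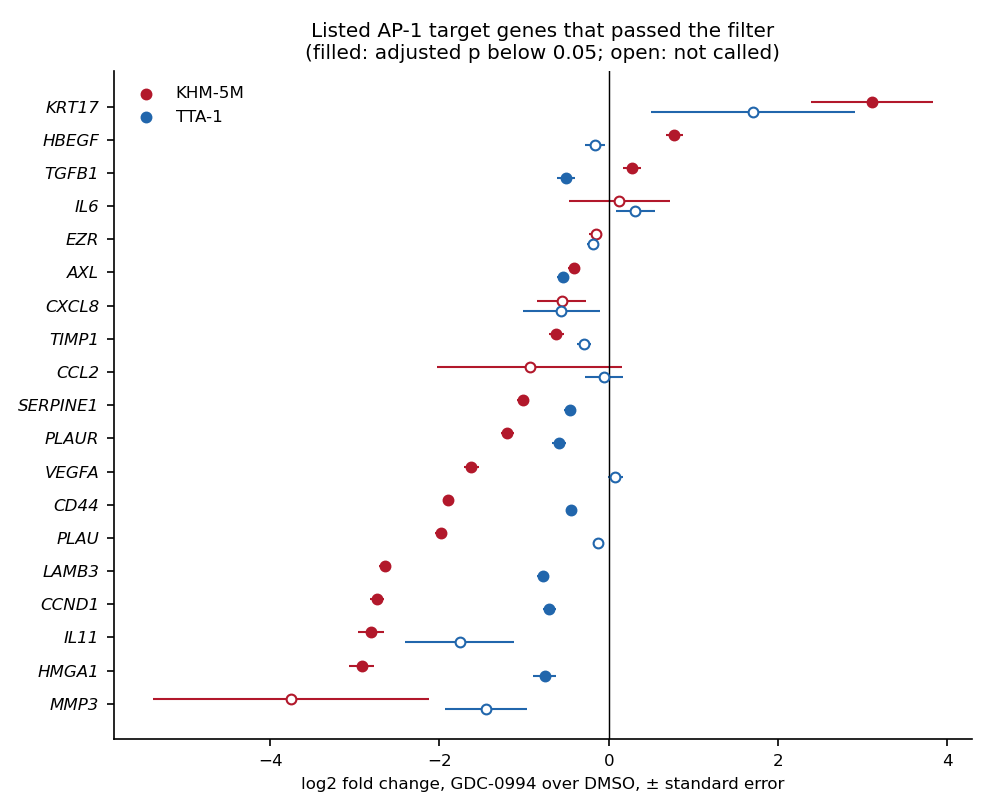
Log2 fold change of GDC-0994 over DMSO ± SE (horizontal) of 19 of the 20 listed AP-1 target genes that were tested, in KHM-5M and in TTA-1; filled points have an adjusted p below 0.05. CCND1 and LAMB3 lie at -2.74 and -2.64 in KHM-5M and at -0.70 and -0.78 in TTA-1, and MMP3, CCL2, IL6, IL11 and KRT17 have wide errors in at least 1 line.

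The genes most like a member over the 12 libraries were found by the Pearson correlation of log2(CPM + 1), among 10431 coding genes. It is a description only, since the libraries fall into 4 groups. FOSL1 was followed most closely by SH3KBP1 (r = 0.987), G0S2 (0.984) and ETV4 (0.981), an ETS factor gene with 3.42 CPM in KHM-5M GDC-0994 and 127 CPM in KHM-5M DMSO. MAFF was followed by SEMA7A (0.989), DNMBP (0.986) and SLC45A3 (0.986). ATF3 was followed by HHLA3 (0.991) and PTGES (0.989), and JUND by METRNL, ULK1 and ZNF581 (0.998, 0.997 and 0.997).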

How the data were processed

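Polyadenylated RNA of 12 libraries was sequenced from random-hexamer cDNA without a step that marks strand, per the labels' protocols. HISAT2 2.0.5, featureCounts 1.5.0-p3, CASAVA and the GRCh38 build are named in the submitters' processing notes, without a role. The authors deposited raw counts per gene and library, and a table of FPKM, which by test on the values equalled the deposited count divided by gene length and by 1 library size per sample, at 0.975 to 1.08 times its total. KHM-5M GDC-0994 columns were matched to samples by the replicate number, since the labels repeat 1 column name.

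Counts were tested with edgeR 4.0.16 in R 4.3.3: filterByExpr (minimum count 10, minimum total 15), TMM scaling, and a quasi-likelihood model of 4 group means over 12 libraries (8 residual degrees of freedom), with Benjamini-Hochberg adjustment over 16218 genes and calls at an adjusted p below 0.05. Standard errors were derived from each log2 fold change and its F statistic. Levels of different genes were compared in FPKM, and CPM is TMM-scaled. Pool shares were tested with exact permutation tests. Scripts were tested on simulated data. Alternatives, also with limma 3.58.1 and DESeq2 1.42.0, were other scalings, filters and pseudocounts, GC and length offsets from GENCODE transcripts, a replicate block, only the groups compared, and leaving out each library. The lists were counted under these settings as an addition made after their main values were seen. The members and gene lists were chosen with earlier results of these data known. All 9 members are named. From each list, up to 3 fallen and 3 risen genes with the smallest p in a line are named, with likeness ranked among coding genes of at least 5 CPM. No pair of replicates agreed within sampling noise. Promoter letters are from RefSeq. A few genes of the lists are counted but not reported by name here.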

Additional observations from a re-analysis of the deposited data

Results flagged for a closer look

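The response to GDC-0994 differed between the lines in 7 of the 9 genes, by the interaction term of edgeR's quasi-likelihood model, which called 27.9% of all genes tested. The FOS call was made in 8 of 23 other settings and the JUNB call in 19 of 24. The difference in log2 fold change, KHM-5M minus TTA-1, was -2.46 for FOSL1, -1.45 for FOS and -1.14 for MAFF, which fell in both lines. It was 1.16 for ATF3, 0.97 for JUND, 0.57 for FOSL2 and 0.52 for JUNB, which rose in KHM-5M and were not called in TTA-1. Line, BRAF status and medium cannot be told apart in these differences.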

How the results depend on the processing

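In KHM-5M 7 or 8 of the 9 genes were called in every setting tried (FOS was not tested under the stricter filter), and in TTA-1 3 to 6 were. Over all genes in KHM-5M, 3991 were higher and 4078 lower of 16218 tested in the main model. With no filter 4211 were higher and 3974 lower of 32513. In a model of the KHM-5M libraries alone 4304 were higher and 4626 lower of 15251. In TTA-1 the sign of 3 genes that were not called depended on the setting. ATF3 had a log2 fold change of 0.000774 with library totals, and -0.0800 to 0.0493 with 1 library left out. JUNB had 0.213 with the GC and length trend removed, 0.202 with a replicate block besides, and -0.158 to 0.0886 with 1 library left out. JUND had 0.0342 with that trend removed and 0.0333 with the block besides. The number of all genes called in TTA-1, 556, moved to 1206 with no filter, 341 in limma with no filter, 981 with the GC and length trend removed (1041 with the block), 206 in a model of the TTA-1 libraries alone, 860 with DESeq2's Wald test, and 259 to 2620 with 1 library left out. The cause was not tested. The calls of AU-rich regulators in TTA-1 moved in 12 of 25 settings, chosen after seeing the data. In CPM in place of FPKM, which drops gene length, the FOSL1 share in KHM-5M differed by -41.4 percentage points (-52.1 in FPKM) and the log2 pool size by -0.68 (-0.86 in FPKM). In CPM the order of genes also shifts with their lengths: in TTA-1 with GDC-0994, FOSL2 (118 CPM) and JUN (94.0 CPM) stood above FOSL1 (76.6 CPM). In KHM-5M with GDC-0994, JUND still led in CPM, but by less. It had 277 CPM, against 215 CPM for FOSL2 and 183 CPM for JUN, where the FPKM were 149.5, 30.3 and 52.1. With DMSO FOSL1 led in mean CPM in both lines, but the order below it shifted. In KHM-5M with DMSO, JUN (235 CPM) stood above JUND (175 CPM), and MAFF (51.3 CPM) above JUNB (30.4 CPM). In TTA-1 with DMSO, FOSL2 (138 CPM) stood above JUN (130 CPM).

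Whether the replicate numbers pair the libraries is not given by the labels and could not be settled from the values. The correlation between same-numbered libraries in their deviations from the group means was 0.0101, 0.0275 and -0.100 in KHM-5M and 0.236, -0.104 and -0.0971 in TTA-1, over 10968 genes. Libraries of different numbers had -0.349 to 0.357 in TTA-1. Such deviations went with GC content in several libraries, so these correlations cannot show whether libraries shared a day or culture. With a replicate block 8 members were called in KHM-5M and 4 in TTA-1, among 7849 and 529 genes in all, and the FOS difference between the lines was lost (adjusted p = 0.0631). The depth limits FOS and FOSB, at 3 to 70 counts a library, and 3 libraries a group limit the shares.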
